A study of Mus musculus with 6 samples.

Results

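Lipocalin 2 (Lcn2) and 7 other genes used as markers of injured kidney tubules, Havcr1, Clu, Vcam1, Icam1, Igfbp7, Sox9 and Cd44, were followed in mouse kidney cells that received a plasmid for the transcription factor HNF3α. These 8 genes were found by their symbols among the 29595 genes of the deposited table, and all 8 were among the 17824 genes with enough counts for a test. The members were chosen from markers of tubular injury with results of this same comparison known, and the fall of Lcn2 was one of the values behind the choice. Their differences between the groups are therefore given as a description, with intervals and without printed p-values. Where a member is said to be past or to miss the threshold given below, this describes the fit over all genes. Such a call is no independent test of that member.

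RNA sequencing had been carried out on TKPTS cells, an immortalised line of mouse proximal tubule cells, harvested 24 h after a transient transfection. The Hnf3a group (3 libraries) had received pcDNA3.1-Hnf3a-Flag, which carries Flag-tagged HNF3α (gene symbol Foxa1), and the pcDNA group (3 libraries) had received pcDNA3.1-Flag without an insert. Both groups were the same line with the same plasmid backbone, and the labels name no injury in either of them. The labels do not say whether the libraries of a group came from separate cultures, so the spread between them may be technical, and the share of cells that took up the plasmid was not given.

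In the kidney, tubular cells that are hurt by ischaemia, toxins or blocked urine flow lose parts of their transport programme and switch on a set of genes that are nearly silent in the healthy tubule. Lipocalin 2 is a secreted protein that binds bacterial siderophores and is measured in urine under the name NGAL. Havcr1 encodes KIM-1, a surface receptor for phosphatidylserine with which surviving tubular cells engulf dying neighbours. Clusterin is a secreted chaperone, VCAM-1 and ICAM-1 are adhesion molecules that leukocytes bind, IGFBP7 is a secreted protein that binds insulin-like growth factors, SOX9 is a transcription factor of regenerating tubular cells, and CD44 is the main receptor for hyaluronan. HNF3α is a forkhead factor, and the promoters of Lcn2, Vcam1 and Icam1 are known as targets of NF-κB.

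Total estimated counts ranged from 60473818 to 71154667 per library, and 1 sequenced fragment was worth up to about 4 counts. Foxa1, the gene on the plasmid (chromosome 12, 57540628 to 57546916, minus strand, build GRCm38), stood at 334.2, 295.5 and 284.2 FPKM (fragments per kilobase of transcript, scaled to library size) in Hnf3a replicates 1, 2 and 3 and at 9.485, 9.544 and 9.961 FPKM in the pcDNA libraries, a 31.3-fold difference. Of 23 proximal tubule markers, 16 were matched in the table. The transcription factor gene Pax8 (29.7 and 29.2 FPKM in the Hnf3a and pcDNA groups) and the fatty acid transporter gene Slc27a2 (9.11 and 8.96 FPKM) were present, whereas the endocytic receptor genes Lrp2 and Cubn, the transporter gene Slc5a2 and the transcription factor gene Hnf4a were at 0 to 58 counts in every library. These defining markers of a mature proximal tubule were thus nearly absent. Hnf3a replicates 2 and 3 stood apart from the other 4 libraries. All 12 fibroblast markers were above the detection floor of 12 counts (about 3 fragments) in both, against 5 in Hnf3a replicate 1 and 2 to 4 in the pcDNA libraries, and their summed level was 8.27 and 10.2 FPKM against 0.284 FPKM and 0.199 to 0.300 FPKM. Of 15 leukocyte markers, 14 and 15 were above the floor there, against 4 in Hnf3a replicate 1 and 5 to 6 in the pcDNA libraries. Member values are for this reason also given for Hnf3a replicate 1 against the pcDNA group, a fit in which the lone library is assumed to vary like the pcDNA libraries. In bulk RNA, fewer cells that express a gene and less RNA of it per cell cannot be told apart.

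Promoter windows from RefSeq (GRCm38.p6) were held for 5 of the 8 members, in 7 windows. Of these, 3 are shown, since Lcn2 had the largest difference, Icam1 carried most motif matches and Havcr1 went the other way. The letters run 5′ to 3′ on the strand of the gene, and capitals mark matches to the motifs searched on both strands of the 250 bases before the RefSeq start. The Lcn2 stretch, 192 bases at chr2:32387798-32387989 on the minus strand, ends at the base before the start of the gene in the deposited table. The Icam1 window is chr9:21015690-21015939 on the plus strand. The Havcr1 window, chr11:46750918-46751167 on the plus strand, is the third of 3. All 3 lie inside the gene as deposited, and the one shown is the only one with a forkhead match.
Lcn2: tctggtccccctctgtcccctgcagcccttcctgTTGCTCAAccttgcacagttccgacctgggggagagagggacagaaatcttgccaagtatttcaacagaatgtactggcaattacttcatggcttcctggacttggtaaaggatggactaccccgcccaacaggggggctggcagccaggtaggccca
Icam1: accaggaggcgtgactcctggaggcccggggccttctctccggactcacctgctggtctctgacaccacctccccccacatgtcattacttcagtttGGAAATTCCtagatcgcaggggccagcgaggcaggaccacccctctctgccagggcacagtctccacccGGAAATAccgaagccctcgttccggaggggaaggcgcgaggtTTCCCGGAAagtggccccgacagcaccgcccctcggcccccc
Havcr1: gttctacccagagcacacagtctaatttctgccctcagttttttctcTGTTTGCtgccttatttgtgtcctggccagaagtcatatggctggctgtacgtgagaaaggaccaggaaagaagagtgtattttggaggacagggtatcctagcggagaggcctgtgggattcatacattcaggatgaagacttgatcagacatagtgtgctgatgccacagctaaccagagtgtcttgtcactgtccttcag
In Lcn2 the capitals are a C/EBP motif (TTGCNNAA) from -216 to -209 relative to the RefSeq start, a motif present in 9.56% of all 32851 windows of this length. In Icam1 they are, in order, a palindrome of the NF-κB type (GGAANTTCC, 0.813% of windows) from -153 to -145, a forkhead variant (TATTTNC read on the minus strand, 12.1%) from -84 to -78 and a STAT motif (TTCNNNGAA, 7.02%) from -42 to -34. This palindrome was added to the search after the sequences had been seen. In Havcr1 the capitals are a forkhead motif (TGTTTNC, 17.8% of windows) from -203 to -197. The second Havcr1 window held a C/EBP motif from -46 to -39, and the first Havcr1 window and the windows of Igfbp7 and Cd44 held no match to any motif searched. None of the 7 windows matched the full NF-κB consensus, which 3.9% of all windows did, or TATAAA, which 12.4% did. A match describes letters and is not a binding site.

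Lcn2 was by far the most abundant of the markers in both groups and had the largest difference between them. The gene (ENSMUSG00000026822; chromosome 2, 32384633 to 32387797, minus strand) stood at 365.8, 368.3 and 388.1 FPKM in pcDNA replicates 1, 2 and 3 and at 213.6, 202.2 and 219.9 FPKM in Hnf3a replicates 1, 2 and 3. Every Hnf3a library was below every pcDNA library, and the gap between the groups was several times the spread within them. The mean was 374.1 ± 12.2 FPKM (SD, n = 3) in the pcDNA group and 211.9 ± 8.99 FPKM (SD, n = 3) in the Hnf3a group. On the log2 scale the fitted difference was -0.83 with a standard error of 0.035 and a 95% interval from -0.90 to -0.75, so that the level fell by 43.7%. Lcn2 took 0.107% to 0.114% of all counts in the pcDNA libraries and 0.0591% to 0.0648% in the Hnf3a libraries. It nevertheless stayed among the most abundant genes, above 99.6% of the tested genes in the pcDNA group and above 99.1% in the Hnf3a group. In Hnf3a replicate 1, where the summed fibroblast markers were at the pcDNA level, Lcn2 lay between its values in the other Hnf3a libraries, and the difference of that library from the pcDNA group was -0.81 on the log2 scale.

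**Figure D1:**
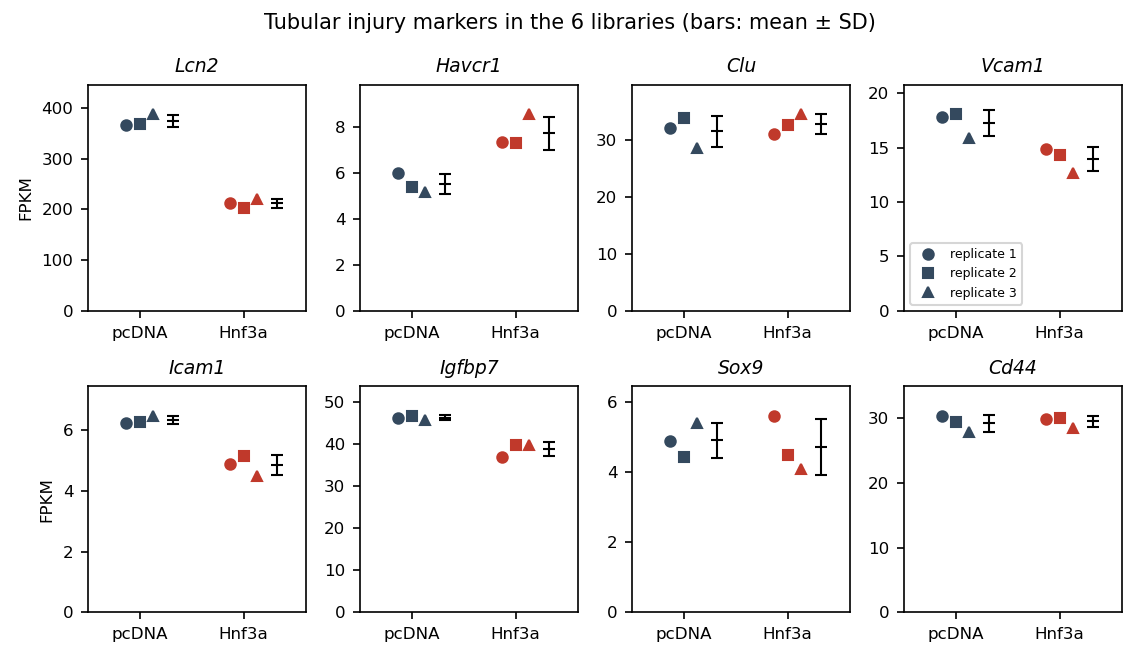
Level of the 8 injury markers in each library, in FPKM on a linear axis that starts at 0, with the scale set for each gene. Circles, squares and triangles are replicates 1, 2 and 3 of the pcDNA group (dark) and the Hnf3a group (red), and the black bars are the mean ± SD of 3 libraries. Lcn2 ran from 365.8 to 388.1 FPKM in the pcDNA group and from 202.2 to 219.9 FPKM in the Hnf3a group, Havcr1 was higher in every Hnf3a library, and the groups overlapped for Clu, Sox9 and Cd44.

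Havcr1, the KIM-1 gene, differed in the opposite direction from a much lower level. The gene spans chromosome 11, 46735080 to 46779578, plus strand. Its level was 6.011, 5.376 and 5.186 FPKM in pcDNA replicates 1, 2 and 3 and 7.353, 7.286 and 8.562 FPKM in Hnf3a replicates 1, 2 and 3. All 3 Hnf3a libraries were above all 3 pcDNA libraries, although Hnf3a replicate 3 stood out above the other two. The means were 5.52 ± 0.432 FPKM (SD, n = 3) and 7.73 ± 0.718 FPKM (SD, n = 3), a difference of 39.1% or 0.48 on the log2 scale (standard error 0.086, 95% interval 0.29 to 0.66). It had 875 to 1455 counts per library, which at 4 counts a fragment gives a counting error of up to 6.76% in 1 library. Against Hnf3a replicate 1 alone the difference was 0.41 and missed the threshold used below. It was 0.46 and 0.43, and also missed it, when pcDNA replicate 2 or 3 was left out. The ratio of Lcn2 to Havcr1, both in FPKM, was 60.9, 68.5 and 74.8 in the pcDNA libraries and 29.1, 27.8 and 25.7 in the Hnf3a libraries, with means of 68.1 ± 7.00 and 27.5 ± 1.70 (SD, n = 3 each). The ratio was lower in every Hnf3a library than in every pcDNA library, and was not tested on its own.

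Both leukocyte adhesion genes were lower in the Hnf3a group, and less so than Lcn2. Icam1 (chromosome 9, 21015985 to 21028817, plus strand) stood at 6.218, 6.278 and 6.476 FPKM in the pcDNA libraries and at 4.891, 5.145 and 4.495 FPKM in the Hnf3a libraries. The groups did not overlap, and the pcDNA libraries were close together. The level fell by 23.8%, a log2 difference of -0.39 (standard error 0.061, 95% interval -0.52 to -0.26). Vcam1 (chromosome 3, 116109949 to 116129688, minus strand) was measured at 17.81, 18.09 and 15.92 FPKM in the pcDNA libraries and at 14.85, 14.28 and 12.7 FPKM in the Hnf3a libraries. The groups were again apart, but the lowest pcDNA library and the highest Hnf3a library were close to each other. Vcam1 fell by 19.7%, with a log2 difference of -0.32 (standard error 0.065, 95% interval -0.47 to -0.17). Against Hnf3a replicate 1 alone, the log2 difference was -0.37 for Icam1 and -0.22 for Vcam1. The Vcam1 value then missed the threshold, as it did at -0.33 with Hnf3a replicate 2 left out and at -0.29 and -0.28 with pcDNA replicate 1 or 2 left out.

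Igfbp7 was the second most abundant marker and had the smallest difference of those past the threshold. The gene spans chromosome 5, 77349240 to 77408041, minus strand. Its level was 46.35, 46.83 and 45.8 FPKM in the pcDNA libraries and 36.95, 39.74 and 39.87 FPKM in the Hnf3a libraries. No Hnf3a library reached the lowest pcDNA library, and Hnf3a replicate 1, which had the fewest fibroblast and leukocyte transcripts of its group, was the lowest of all. The means of 46.3 ± 0.518 and 38.9 ± 1.65 FPKM (SD, n = 3 each) differed by -0.26 on the log2 scale (standard error 0.043, 95% interval -0.36 to -0.17), and the level fell by 16.6%. With Hnf3a replicate 1 alone the difference was -0.33. The last 85 bases of Polr2b, a gene on the other strand, overlap the end of Igfbp7, and whether strand was used in counting is not given in the sources used here. Polr2b had 10379 to 12540 counts per library and a log2 difference of 0.00 (95% interval -0.07 to 0.07).

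Clusterin, CD44 and SOX9 showed no difference beyond the spread of the libraries. Clu (chromosome 14, 65968483 to 65981547, plus strand) ran at 32.03, 33.82 and 28.53 FPKM in the pcDNA libraries and at 30.97, 32.47 and 34.46 FPKM in the Hnf3a libraries. The ranges overlapped over most of their width, and the 95% interval of the log2 difference, -0.09 to 0.17, leaves room for a change from -5.8% to 12.9%. Cd44 (chromosome 2, 102811141 to 102901665, minus strand) was at 30.38, 29.41 and 27.78 FPKM in the pcDNA libraries and at 29.84, 30.03 and 28.52 FPKM in the Hnf3a libraries. This was the most tightly bounded of the 3, with an interval from -0.08 to 0.09 on the log2 scale. Sox9 (chromosome 11, 112782224 to 112787760, plus strand) was at 4.903, 4.423 and 5.406 FPKM in the pcDNA libraries and at 5.62, 4.481 and 4.084 FPKM in the Hnf3a libraries. Sox9 had the widest spread, its highest and its lowest library both being Hnf3a libraries, and its interval ran from -0.32 to 0.20. Differences of that size in Sox9 were not detectable with these libraries.

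**Figure D2:**
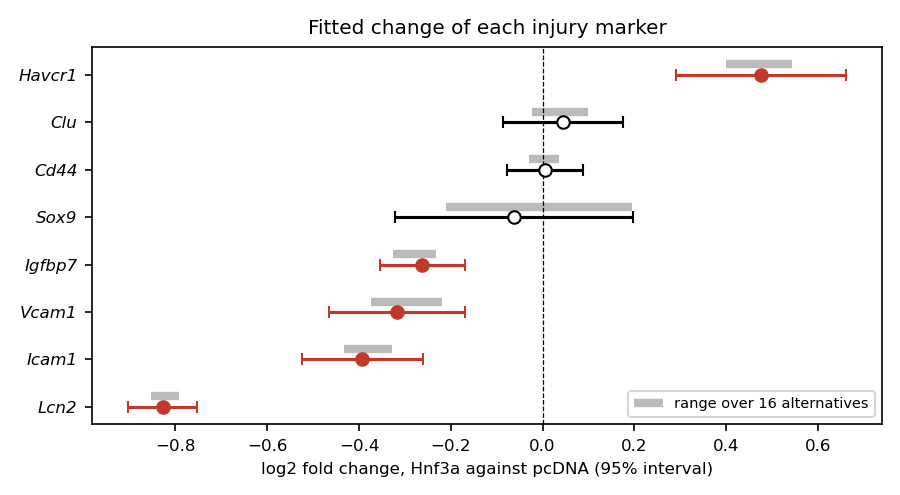
Fitted log2 fold change of each injury marker, Hnf3a against pcDNA, with its 95% interval (points and whiskers, 3 libraries a group) and, as a grey bar above it, the range of the estimate over the 16 alternative analyses. Filled red points were past the threshold. Lcn2 lies at -0.83, Havcr1 alone lies clearly above 0 at 0.48, and the intervals of Clu, Cd44 and Sox9 include 0.

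Of the 8 members, 5 were past the threshold of an adjusted p under 0.05 (edgeR quasi-likelihood test with Benjamini-Hochberg adjustment over all genes), 1 higher (Havcr1) and 4 lower (Lcn2, Icam1, Igfbp7 and Vcam1) in the Hnf3a group. Over all 17824 tested genes, 565 (3.17%) were past it, 186 (1.04%) higher and 379 (2.13%) lower. The same 5 members had groups that did not overlap in FPKM, as had 19.0% of all tested genes, 10.3% higher and 8.70% lower. Because the members were chosen on this comparison, nothing is read from these shares. The median log2 difference of the members was -0.16, against 0.00 for all tested genes. With Hnf3a replicate 1 as the only library of its group, 3 of the 8 were past the threshold (Lcn2, Icam1 and Igfbp7), and without pcDNA replicate 2 it was also 3.

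Ranked by level in the pcDNA group, the order was Lcn2, Igfbp7, Clu, Cd44, Vcam1, Icam1, Havcr1 and Sox9. The neighbours Clu and Cd44, and Havcr1 and Sox9, overlapped in their ranges. In the Hnf3a group the order was Lcn2, Igfbp7, Clu, Cd44, Vcam1, Havcr1, Icam1 and Sox9, with only Icam1 and Sox9 overlapping, so that Havcr1 and Icam1 changed places. Lcn2 made up 71.8% to 74.2% of the summed FPKM of the 8 markers in the pcDNA libraries and 60.2% to 62.4% in the Hnf3a libraries. The sum itself was 509.5 to 523.2 FPKM and 335.6 to 352.6 FPKM.

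The genes whose pattern was nearest to that of Lcn2 were sought among 11922 tested genes with a mean of at least 1 FPKM, by the Euclidean distance between log2 CPM values in the 6 libraries after each gene was centred on its own mean. On this measure a gene with a flat profile lies at a distance of 1.02 from Lcn2. The nearest genes were Ltbp2, a matrix protein that binds fibrillin, at a distance of 0.0957, Ltf, the secreted iron carrier lactotransferrin, at 0.139, Acod1, the enzyme that makes itaconate, at 0.161, Zc3h12a, the ribonuclease Regnase-1, at 0.210, and Krt16, a keratin, at 0.214. Their log2 differences lay between -0.86 and -0.74. Acod1 was the most abundant of them, at 95.8, 93.7 and 93.5 FPKM in the pcDNA libraries and 54.8, 56.0 and 59.8 FPKM in the Hnf3a libraries. Among the other markers, Icam1 ranked 130 at a distance of 0.577, Vcam1 268 at 0.697 and Igfbp7 294 at 0.711, while Havcr1 ranked 11752 at 1.61. The likeness is a description over 6 libraries that share the grouping.

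**Figure D3:**
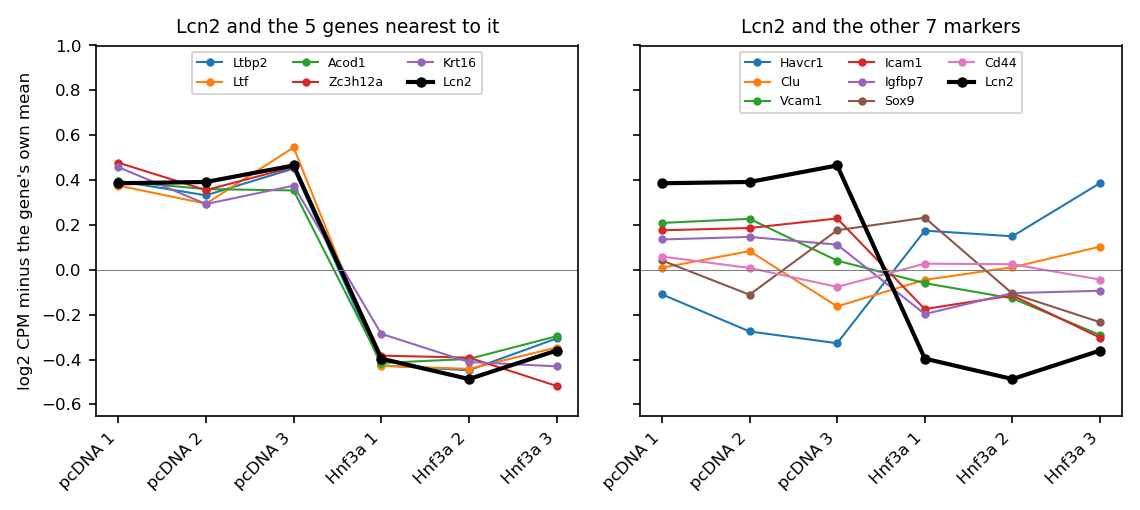
Log2 CPM in each library minus the mean of the gene over the 6 libraries, for Lcn2 (thick black) with the 5 genes nearest to it (left) and with the other 7 injury markers (right). The nearest genes step down with Lcn2 between the pcDNA and the Hnf3a libraries, with log2 differences from -0.86 to -0.74, whereas Icam1, Vcam1 and Igfbp7 take a smaller step (-0.39 to -0.26) and Havcr1 a step up of 0.48.

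The receptors and transcriptional inputs of lipocalin 2 formed a list of 19 genes, 18 of them tested. In the Hnf3a group 5 of the 18 were past the threshold and lower, and none were past it and higher. Over all tested genes, 2.13% were lower and 1.04% higher past it. The median log2 difference of the 18 was -0.08, with 12 differences below 0 and 6 above. The list was written with earlier results of these data known, so nothing is read from the count. Genes of the NF-κB pathway are in the list by construction, and no enrichment among the 5 was tested. Zc3h12a, which degrades inflammatory mRNAs and is itself induced by NF-κB, was at 22.02, 20.3 and 21.8 FPKM in the pcDNA libraries and 12.2, 12.2 and 11.1 FPKM in the Hnf3a libraries, a log2 difference of -0.86 ± 0.051 (SE; edgeR adjusted p = 5.18e-07). Nfkbiz, whose product IκBζ is a co-activator at the Lcn2 promoter, was at 31.4, 31.5 and 31.3 FPKM against 22.6, 22.6 and 22.4 FPKM, a log2 difference of -0.49 ± 0.031 (SE; edgeR adjusted p = 7.64e-07). The inhibitor gene Nfkbia fell by 0.38 (edgeR adjusted p = 4.15e-05), Nfkb1 by 0.32 (edgeR adjusted p = 1.83e-04) and Nfkb2 by 0.14 (edgeR adjusted p = 0.0342) on the log2 scale. Nfkb2 alone of these was past the threshold in only 7 of the 16 alternatives, and it missed it with the replicate number as a block. The subunit genes Rela and Relb had log2 differences of -0.03 and -0.19 (edgeR adjusted p = 0.903 and 0.0875), and the other known inputs Cebpb, Cebpd and Stat3 had -0.06, -0.10 and 0.09, none past the threshold. Of the lipocalin 2 receptors, Lrp2 had 17 to 53 counts per library and Slc22a17 had 35 to 71 counts in the pcDNA and 85 to 142 counts in the Hnf3a libraries (log2 difference 1.12, edgeR adjusted p = 0.0512). Mmp9, the protease that binds lipocalin 2, stood at 49 to 123 counts and overlapped between the groups.

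Other genes known to rise in injured tubules moved in both directions. Of 55 such genes, 52 were tested, of which 7 rose, 9 fell and 36 did not pass the test. Over all tested genes, 1.04% rose and 2.13% fell past the threshold. This list, too, was written with earlier results known, and nothing is read from its counts. The median log2 difference of the 52 was -0.01. The largest of the named falls was that of the metallothionein gene Mt2, at 10.5, 13.3 and 13.7 FPKM in the pcDNA and 5.80, 7.15 and 7.54 FPKM in the Hnf3a libraries (log2 difference -0.88 ± 0.138 SE, edgeR adjusted p = 0.00258). The antiprotease gene Slpi fell by 0.43, the annexin gene Anxa1 by 0.37 and the galectin-3 gene Lgals3 by 0.26 on the log2 scale. Their edgeR adjusted p-values lay between 8.27e-06 and 0.0033. The genes that rose did so by less. Dcdc2a, at 4.43, 4.53 and 4.49 FPKM in the pcDNA and 5.84, 6.24 and 5.88 FPKM in the Hnf3a libraries, rose by 0.41 (edgeR adjusted p = 1.11e-04). Prom1, a surface marker of scattered and regenerating tubular cells, rose by 0.30, the urokinase gene Plau by 0.23 and the keratin genes Krt18 and Krt19 by 0.20 and 0.21, with edgeR adjusted p-values from 3.46e-04 to 0.00269. The counts of injury genes past the threshold were 9 in both limma analyses of FPKM and 23 with DESeq2.

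**Figure D4:**
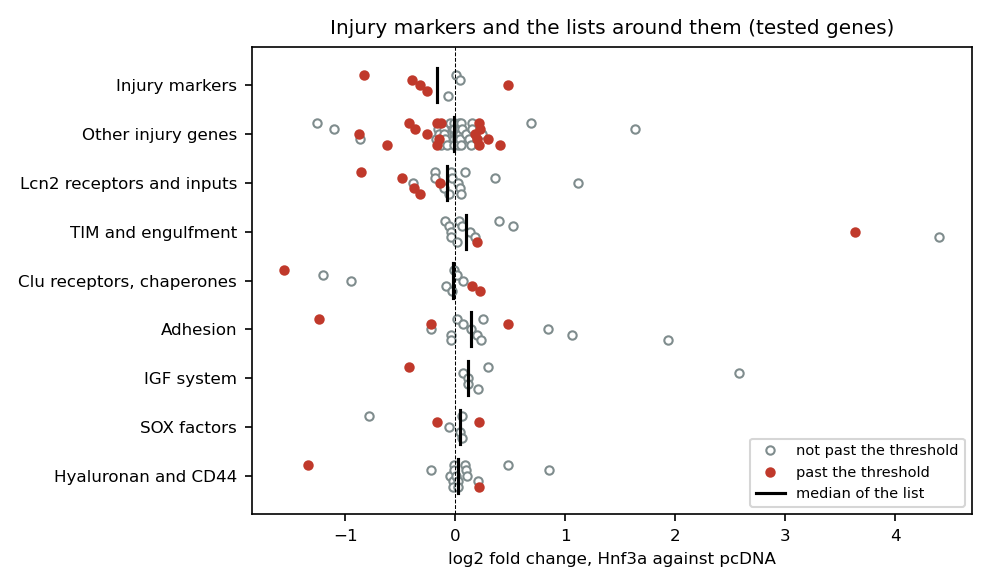
Log2 fold change, Hnf3a against pcDNA, of each tested gene in the list of 8 injury markers and in 8 lists around them; red points were past the threshold, open points were not, and black bars are list medians. The Lcn2 receptors and inputs have 5 of 18 genes past the threshold, all lower, while the other injury genes have 7 higher and 9 lower. Points to the right of 3 come from genes at or near the detection floor in the pcDNA libraries.

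Lists were also set around the other markers, likewise with earlier results of these data known, and their counts are given as a description. Over all tested genes, 1.04% were higher and 2.13% lower past the threshold, and nothing is read from the counts of these lists. In the TIM and engulfment list around Havcr1, 2 of 14 tested genes were past the threshold, both higher. The opsonin gene Mfge8 rose by 0.20 on the log2 scale (edgeR adjusted p = 0.0239). The other was the receptor gene Mertk, which entered the test only through its level in the Hnf3a group, so that its call carries no weight. It had 36, 37 and 24 counts in Hnf3a replicates 1, 2 and 3 but 3, 0 and 4 counts, under the detection floor, with the empty plasmid. Axl, the most abundant engulfment receptor gene, overlapped between the groups at 33.7 to 38.2 FPKM. In the list around Clu (10 tested), the small heat shock protein genes Cryab (0.22, edgeR adjusted p = 8.21e-04) and Hspb1 (0.15, edgeR adjusted p = 0.0133) rose, and the haptoglobin gene Hp fell by 1.56 (edgeR adjusted p = 0.0226) from 2.43 to 3.93 FPKM down to 0.670 to 1.45 FPKM. In the adhesion list around Icam1 and Vcam1 (15 tested), Selp and Cd47 fell and Mcam rose. Selp, the P-selectin gene, had 212 to 316 counts in the pcDNA and 74 to 135 counts in the Hnf3a libraries. The integrin gene Itga4, a subunit of the VCAM-1 receptor, and Itgal, of the ICAM-1 receptor, were listed at under 0.03 FPKM on average in both groups. Mertk, Mfge8, Hp, Hspb1, Selp and Mcam each missed the threshold with at least 1 of the libraries left out, and Cryab and Cd47 did not.

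Of 7 tested genes of the insulin-like growth factor system besides Igfbp7, Igfbp3 fell by 0.42 (edgeR adjusted p = 0.00603) and the others did not pass the test. Among 7 tested SOX genes besides Sox9, Sox13 rose by 0.21 (edgeR adjusted p = 0.0189) and Sox4 fell by 0.17 (edgeR adjusted p = 0.0277). Sox17 was the most abundant SOX gene in these cells at 21.2 to 24.3 FPKM and overlapped between the groups. Of 17 tested genes for hyaluronan, CD44 linkers and splicing factors, the synthase gene Has2 fell by 1.34 (edgeR adjusted p = 5.52e-04) from 205 to 220 counts down to 78 to 103 counts, and Spp1, which encodes the CD44 ligand osteopontin, rose by 0.21 (edgeR adjusted p = 0.00419). The CD44 linker genes Ezr, Msn and Rdx had log2 differences of -0.01, -0.01 and 0.03 and did not pass the test. With single libraries left out, Sox4, Sox13 and Spp1 could miss the threshold, whereas Igfbp3 and Has2 stayed past it. The shares over all tested genes, 1.04% higher and 2.13% lower past the threshold, stand beside these lists too.

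Marker lists of other cell types were set beside the members because several markers are also made by leukocytes, fibroblasts and endothelium. The summed fibroblast markers were highest in Hnf3a replicates 2 and 3, mostly through Col1a1, which had 2694 and 3099 counts there, 33 counts in Hnf3a replicate 1 and 0 to 16 counts in the pcDNA libraries. None of the 9 tested fibroblast markers passed the test, and all 9 had log2 differences above 0, with a median of 2.0. Of 8 tested leukocyte markers, 7 had log2 differences above 0, with a median of 1.1 over the 8, and none of these 7 passed the test. The one below 0, Cd14, the lipopolysaccharide co-receptor gene, passed it, at 35.8, 34.8 and 39.2 FPKM in the pcDNA and 21.95, 23.6 and 22.6 FPKM in the Hnf3a libraries (log2 difference -0.69, edgeR adjusted p = 2.63e-06). The pan-leukocyte gene Ptprc had 0 to 31 counts per library. Of 8 tested endothelial markers, Cdh5 fell by 1.23 (edgeR adjusted p = 8.21e-04), and Tek was at the floor, with 11 to 16 counts in the Hnf3a libraries and none in the others. The part of other cells in the differences of the 8 injury markers was not tested.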

How the data were processed

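RNA of 6 TKPTS libraries, 3 Hnf3a and 3 pcDNA, was sequenced by a company. The labels gave each group and replicate number. Libraries were poly(A)-selected, strand-marked and carried unique molecular identifiers. The submitters' notes list cutadapt 1.9, HISAT2 2.0.4, UMI-tools, StringTie 1.3.4d, DESeq2 and edgeR, and the mm10 build, without saying which step used which.

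For each gene and library the authors deposited an estimated count, a whole number that was not normalized. The same table holds the FPKM values the authors deposited, scaled to gene length and library size. In every library more genes sat at 4 counts than at 3 or 5, so 1 fragment was taken as up to 4 counts and the detection floor as 12 counts (0.169 to 0.198 CPM). Floors and counting errors cover counting error only.

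Genes were filtered with filterByExpr, scaled by TMM and tested two-sided with edgeR 4.0.16 (glmQLFit, robust, glmQLFTest) in R 4.3.3. The threshold was an adjusted p of 0.05 (Benjamini-Hochberg over 17824 genes). Standard errors came from the F statistic, and 95% intervals from the fit. With 3 libraries against 3, an exact permutation test cannot go below a p of 0.1. The fit was tested on simulated data.

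The members and all gene lists were chosen with earlier results of these data known. The genes named were Foxa1, the members, up to 5 higher and 5 lower genes of each list past the threshold, by smallest p, up to 4 abundant markers of each cell type, and the 5 genes nearest to Lcn2. Some genes that this rule names are not reported here. Others named with values were chosen after their values were seen. Genes with close copies, such as keratins and metallothioneins, may share reads. No pair of libraries was identical or agreed within sampling noise. Alternatives were other scalings and filters, DESeq2 1.42.0, limma 3.58.1 on log2(FPKM + 0.1) and log2(FPKM + 1), counts divided by 4, a replicate block and left-out libraries.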

Additional observations from a re-analysis of the deposited data

How the results depend on the processing

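Across 16 alternatives, Lcn2 (-0.85 to -0.79 on the log2 scale), Icam1 (-0.43 to -0.33) and Igfbp7 (-0.33 to -0.23) stayed past the threshold in the same direction. Havcr1 (0.40 to 0.54) lost it in 4 and Vcam1 (-0.37 to -0.22) in 7, both without a change of direction. The number of injury markers past the threshold, 5, became 3 with limma on log2(FPKM + 1) and 3 without Hnf3a replicates 2 and 3, and ranged from 3 to 5 when each library was left out. The number of other injury genes, 16, became 9 in each limma analysis and ranged from 12 to 20 when each library was left out. The number of genes that differed, 565, became 236 with limma on log2(FPKM + 0.1), 231 with limma on log2(FPKM + 1), 322 without Hnf3a replicates 2 and 3, and 263 to 643 when each library was left out. The low values came without Hnf3a replicate 2 (263), pcDNA replicate 1 (286), pcDNA replicate 2 (267) and pcDNA replicate 3 (349). DESeq2 called 819 genes. The cause of these moves was not tested. All alternatives used the libraries on which the members were chosen, so a member that stayed past the threshold gains no support from them.

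The 3 members that were not past the threshold changed sign around 0. With each library left out, Clu ranged from -0.0219 (pcDNA replicate 3 left out) to 0.0998, Sox9 from -0.210 to 0.0330 (Hnf3a replicate 3 left out, 0.0113 for pcDNA replicate 3) and Cd44 from -0.0300 (pcDNA replicate 3 left out, -0.00835 and -0.00438 for Hnf3a replicates 1 and 2) to 0.0365. Without Hnf3a replicates 2 and 3, Clu was at -0.0228 and Sox9 at 0.194.

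Over all tested genes, the deviations of same-numbered libraries correlated at -0.04, -0.01 and 0.01. With 3 libraries a group, this does not settle whether the replicate numbers pair the libraries. With the replicate block the standard error of Vcam1 fell from 0.065 to 0.035, and that of Havcr1 rose from 0.086 to 0.091. With the replicate block, 463 genes differed, 5 injury markers and 15 other injury genes were past the threshold, and of the genes named only Nfkb2 and Tek missed it. Of the other genes named, these missed the threshold with a single library left out, in the same direction. Tek (6.65 to 6.90) missed it whichever library was left out. Nfkb2 (-0.16 to -0.12) and Sox4 (-0.18 to -0.13) missed it without any 1 library but Hnf3a replicate 1, Mfge8 (0.17 to 0.23) without any but pcDNA replicate 3, Mertk (3.06 to 4.21) without any but Hnf3a replicate 3, Sox13 (0.19 to 0.22) without Hnf3a replicate 2 or any pcDNA library, and Hspb1 (0.13 to 0.18) without any pcDNA library. Hp (-1.75 to -1.28) missed it without Hnf3a replicate 2 or pcDNA replicate 1 or 2, Mcam (0.43 to 0.55) and Spp1 (0.18 to 0.24) without pcDNA replicate 1 or 2, and Selp (-1.37 to -1.03) without pcDNA replicate 2. Counting error was largest among the members for Havcr1, Sox9 and Icam1, at 6.8%, 5.7% and 5.3% in the library with the fewest counts. The spread of Sox9 between libraries was larger, at 16.9% of the mean in the Hnf3a group and 10% in the pcDNA group. In the lists, depth limited genes near the floor most, such as Mertk and Tek.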
